A study of Mus musculus with 2 samples.

Results

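The 10 genes described here encode neutrophil granule proteins and the alarmins packed into neutrophil cytosol: S100a8, S100a9, Retnlg, Lcn2, Ltf, Camp, Ngp, Mmp8, Mmp9 and Olfm4. They were chosen by symbol, and each had 1 row among the 32285 genes of both count matrices. The matrices came from droplet libraries of the central nervous system of mice with experimental autoimmune encephalomyelitis (EAE), a model of multiple sclerosis raised by immunization. One library held cells of Stat4fl/flCD11cCre mice (titled CKO by the submitters), in which floxed Stat4 meets a Cre recombinase under the promoter of CD11c, an integrin of dendritic cells and other myeloid cells, and the other held cells of wild-type (WT) mice. All mice were C57BL/6, had received MOG peptide in complete Freund's adjuvant with pertussis toxin, and were killed on day 15. Mononuclear cells of each genotype were pooled over animals, taken through a Percoll gradient and sorted for MHCII+CD11c+ cells. Each genotype is therefore 1 library: no difference between genotypes has a replicate check, no test across samples was possible, and the genotype, the pool, the sort and the capture cannot be told apart.

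Neutrophils fill their granules in sequence as they mature. Azurophil proteases are made by progenitors, the specific granule proteins lactoferrin, cathelicidin and lipocalin 2 by dividing and just post-mitotic cells, and gelatinase later, while S100a8 and S100a9 mRNA is held through maturation and their protein pair, calprotectin, is released as a danger signal. The C/EBP family, C/EBP epsilon above all, is known for driving the specific granule genes. In EAE, neutrophils enter the central nervous system early, and the MHCII+CD11c+ gate is aimed at other cells.

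Some of the genes share a chromosome region, but only S100a8 and S100a9 are direct neighbours among protein-coding genes. S100a8 (chr3:90669071-90670034) and S100a9 (chr3:90692630-90695721) lie 22.6 kb apart with 0 protein-coding genes between them, and Camp (chr9:109847377-109849456), Ngp (chr9:110419808-110423012) and Ltf (chr9:111019292-111042766) lie along a stretch of chromosome 9 on which 29 protein-coding genes stand between Camp and Ltf, Ngp not being their direct neighbour. The other genes are Mmp8 (chr9:7558429-7568486), Lcn2 (chr2:32384637-32387739), Mmp9 (chr2:164940326-164955850), Olfm4 (chr14:80000302-80023141) and Retnlg (chr16:48872608-48874498), all in the mouse build GRCm38.p6. RefSeq windows from 250 bases before to 50 bases after the gene start were at hand for 9 of the 10. The C/EBP core TTGCNNAA, searched on both strands, was found in 6 of those 9, against 10.8% of 32851 mouse promoters of the same length. The 6 were S100a9, Retnlg, Lcn2, Ltf, Ngp, which held it at 2 places, and Mmp8. A PU.1-type sequence, GAGGAAGT on either strand, was in 3 of 9 (S100a8, Mmp8 and Olfm4) against 3.20% of all, and TATAAA on either strand in 3 of 9 (S100a8, S100a9 and Mmp8) against 13.6% of all. No match overlapped one of another motif, and a match is a string of letters, not a binding site. The windows of Ltf, Camp and Ngp are printed because these genes varied strongly by stage in the same direction, and that of Mmp8 because its values outside neutrophils were unlike those of the others. They are from RefSeq, GRCm38.p6, 5′ to 3′ on the gene's strand, with the C/EBP core in capitals: Ltf at chr9:111019042-111019341, plus strand, Camp at chr9:109849407-109849706, minus strand, Ngp at chr9:110419558-110419857, plus strand, and Mmp8 at chr9:7558179-7558478, plus strand. Camp held 0 matches.
Ltf: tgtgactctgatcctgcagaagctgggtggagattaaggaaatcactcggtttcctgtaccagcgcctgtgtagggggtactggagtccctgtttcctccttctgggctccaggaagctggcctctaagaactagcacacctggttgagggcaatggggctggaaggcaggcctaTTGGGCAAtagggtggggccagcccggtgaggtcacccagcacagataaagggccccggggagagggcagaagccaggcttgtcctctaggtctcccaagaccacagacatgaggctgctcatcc
Camp: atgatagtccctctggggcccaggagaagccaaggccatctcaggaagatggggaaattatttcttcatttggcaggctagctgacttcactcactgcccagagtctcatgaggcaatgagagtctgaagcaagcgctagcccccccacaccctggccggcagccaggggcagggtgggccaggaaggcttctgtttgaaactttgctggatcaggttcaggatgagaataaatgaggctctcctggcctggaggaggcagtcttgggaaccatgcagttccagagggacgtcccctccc
Ngp: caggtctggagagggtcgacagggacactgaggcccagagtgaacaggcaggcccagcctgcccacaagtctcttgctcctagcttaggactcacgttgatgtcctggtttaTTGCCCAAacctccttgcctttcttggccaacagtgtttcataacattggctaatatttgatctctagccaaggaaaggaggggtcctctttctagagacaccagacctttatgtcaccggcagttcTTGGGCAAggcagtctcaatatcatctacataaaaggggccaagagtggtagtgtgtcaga
Mmp8: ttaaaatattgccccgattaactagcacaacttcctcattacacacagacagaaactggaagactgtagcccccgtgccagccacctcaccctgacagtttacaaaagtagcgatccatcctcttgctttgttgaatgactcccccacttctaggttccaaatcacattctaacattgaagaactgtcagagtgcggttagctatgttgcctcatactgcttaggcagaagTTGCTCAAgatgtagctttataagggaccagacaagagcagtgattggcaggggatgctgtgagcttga

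The Stat4fl/flCD11cCre matrix held 12534 barcodes and the WT matrix 13820. A barcode was kept with at least 500 genes, at least 1000 unique molecular identifiers (UMIs, each counting 1 captured molecule) and under 10% mitochondrial UMIs, which left 12305 Stat4fl/flCD11cCre and 13298 WT cells. Median depth was 6878 (CKO) and 6440.5 (WT) gene UMIs. The libraries shared 43 barcodes, of which 0 were a gated granulocyte. Stat4 itself was counted at 45.4 (CKO) and 45.0 CPM (WT) in granulocytes, where CPM are UMIs scaled to the total of the gate, at 230.0 (CKO) and 249 CPM (WT) in T cells, and at 152 (CKO) and 221 CPM (WT) in the few cDC2. The labels do not say which exons are floxed, so 3′ counts of Stat4 do not check the deletion.

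Cell types were assigned from markers that do not include the 10 genes, by the lineage with the largest share of its list detected, at least 3 markers and a share at least 2 times that of any other lineage. This gave 945 Stat4fl/flCD11cCre granulocytes, 7.68% of kept cells (95% exact binomial interval 7.22 to 8.16%), and 601 WT granulocytes, 4.52% (4.17 to 4.89%). Of them, 28 (CKO) and 24 (WT) fell in the progenitor gate (Elane, Mpo, Prtn3), 102 (CKO) and 68 (WT) in the immature neutrophil gate (Fcnb, Ly6g, Cd177) and 815 (CKO) and 509 (WT) in the mature neutrophil gate (Cxcr2, Csf3r, Hdc). Mki67, a cycling gene, had a UMI in 85.7% (CKO) and 79.2% (WT) of progenitors, 28.4% (CKO) and 38.2% (WT) of immature and 1.10% (CKO) and 2.36% (WT) of mature cells. The stage gates were not free of one another: Cxcr2, a marker of the mature list, had a UMI in 87.3% (CKO) and 66.2% (WT) of cells in the immature gate. Depth moved with stage too, at a median of 11513.5 (CKO) and 9191 UMIs (WT) in immature but 2747 (CKO) and 2120 UMIs (WT) in mature cells. RNA of the sort markers was found in few neutrophils: H2-Aa, an MHC class II chain, had a UMI in 6.01% (CKO) and 14.5% (WT) of mature neutrophils, and Itgax, which encodes CD11c, in 7.48% (CKO) and 3.93% (WT). In the T cell gate, whose cells were deeper, H2-Aa had a UMI in 8.64% (CKO) and 13.8% (WT) and Itgax in 5.23% (CKO) and 6.38% (WT). Shares rise with depth, so CPM are given too. H2-Aa was at 154 (CKO) and 272 CPM (WT) in mature neutrophils and 178 (CKO) and 143 CPM (WT) in T cells. Itgax was at 26.3 (CKO) and 17.7 CPM (WT) in mature neutrophils and 9.23 (CKO) and 12.8 CPM (WT) in T cells. How much of the neutrophil signal is background was not tested.

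The gates did not take in every cell rich in these transcripts. Cells with at least 1% of their UMIs from S100a8 and S100a9, called calgranulin-rich below, made up 11.1% of kept Stat4fl/flCD11cCre cells and 8.41% of kept WT cells. Of these 1369 (CKO) and 1118 (WT) cells, 522 (CKO) and 617 (WT) passed no gate, and 422 (CKO) and 532 (WT) of the ungated missed the margin of 2 against another lineage. The granulocyte share was level with or above that of every other lineage in 202 (CKO) and 285 (WT) of those cells and below it in the rest, and the strongest other list was one of monocytes or macrophages in 138 (CKO) and 245 (WT). The cells that missed the margin had a median of 13273.5 (CKO) and 10862 UMIs (WT), deeper than the gated neutrophils. Ungated cells held 40.1 to 49.2% of each gene's UMIs in the Stat4fl/flCD11cCre library and 50.4 to 75.2% in the WT library. The stage and genotype values that follow are therefore those of cells with a clear neutrophil marker profile.

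The calgranulins led the order in granulocytes of both libraries. Because each 3′ UMI stands for 1 molecule whatever the transcript's length, levels in CPM can be set side by side between genes. S100a9 was counted at 124951 CPM in Stat4fl/flCD11cCre and 98999 CPM in WT granulocytes, and S100a8 at 92058 (CKO) and 83852 CPM (WT). Together the 10 genes supplied 27.3% (CKO) and 22.3% (WT) of all granulocyte UMIs. Retnlg, which encodes the rodent resistin-like protein gamma, had rank 3 at 16791 CPM in Stat4fl/flCD11cCre granulocytes but rank 5 at 9073 CPM in WT. Next stood Ngp at 12890 (CKO) and 10236 CPM (WT) and Camp at 12211 (CKO) and 9671 CPM (WT), which encode neutrophilic granule protein and the cathelicidin precursor. Lcn2, the siderophore-binding lipocalin 2, was at 8952 (CKO) and 7123 CPM (WT) and Ltf, the iron-binding lactoferrin, at 2621 (CKO) and 2066 CPM (WT). The metalloproteases were lower, with Mmp8 (neutrophil collagenase) at 1235 (CKO) and 833 CPM (WT) and Mmp9 (gelatinase B) at 1074 (CKO) and 713 CPM (WT). Olfm4, a specific granule glycoprotein known to mark a subset of neutrophils, closed the order at 60.8 (CKO) and 16.5 CPM (WT). In each library, no 2 neighbours in the order had overlapping Poisson intervals. Those intervals do not cover the choice of gate. With cells whose stage lists tied kept in, WT Retnlg took rank 4 at 10221 CPM and WT Camp rank 5 at 9838 CPM.

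**Figure D1:**
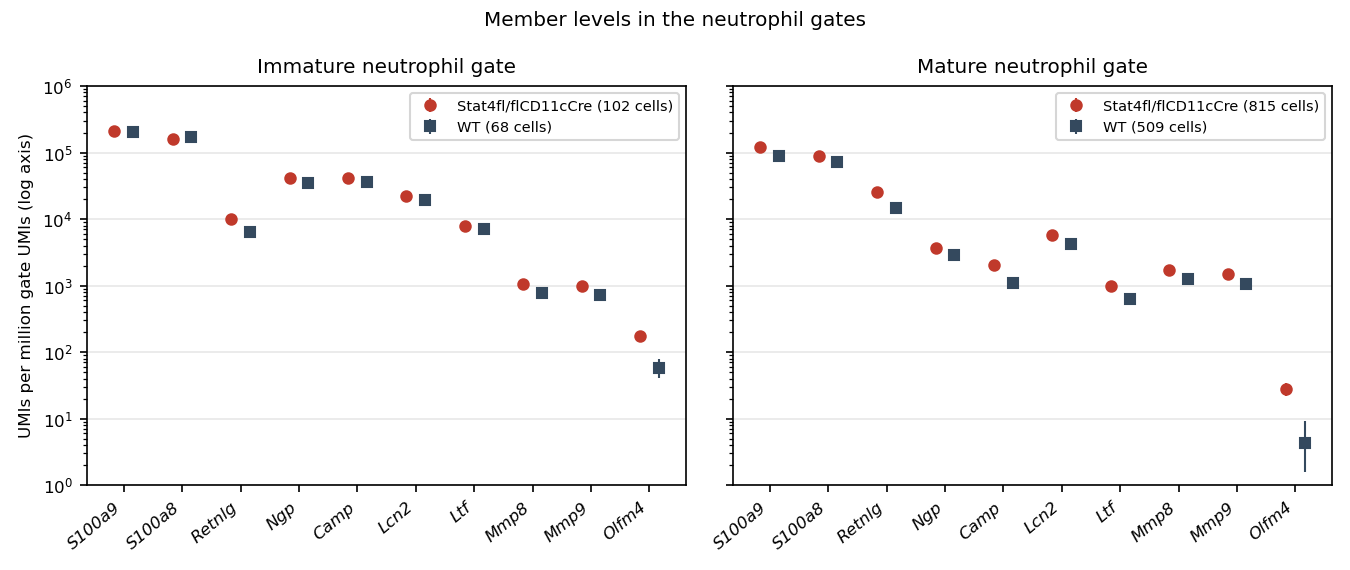
Levels of the 10 genes, in CPM of the gate on a log axis, in the immature (left) and mature (right) neutrophil gates of the Stat4fl/flCD11cCre library (circles) and the WT library (squares), with exact 95% Poisson bars that are mostly smaller than the symbols. Camp stood near 41158 (CKO) and 35787 CPM (WT) in immature cells against 2017 (CKO) and 1082 CPM (WT) in mature cells, while Retnlg was higher in mature cells of both libraries.

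Camp, Ngp and Ltf set the stages far apart. Camp had 41158 CPM in immature and 2017 CPM in mature Stat4fl/flCD11cCre cells, a 20.4-fold difference, and 35787 CPM in immature and 1082 CPM in mature WT cells, a 33.1-fold difference. Ngp followed with 40890 CPM in immature and 3622 CPM in mature Stat4fl/flCD11cCre cells (11.3-fold), and 35244 CPM in immature and 2885 CPM in mature WT cells (12.2-fold). Ltf had 7936 CPM in immature and 1001 CPM in mature Stat4fl/flCD11cCre cells (7.93-fold), and 7098 CPM in immature and 626 CPM in mature WT cells (11.3-fold). All 3 encode antimicrobial or iron-withholding proteins of the specific granule, and most immature cells held all 3. After each cell was thinned to 1000 UMIs, all 3 were found in 85.3% (CKO) and 82.4% (WT) of immature cells but in 4.54% (CKO) and 3.34% (WT) of mature cells, and none of the 3 in 82.3% (CKO) and 85.7% (WT) of mature cells. The other 107 of 815 Stat4fl/flCD11cCre and 56 of 509 WT mature cells held 1 or 2 of the genes, more than the 37 (CKO) and 17 (WT) with all 3. Among the 91 (CKO) and 50 (WT) mature cells with 1 gene, it was Ngp in 72.5% (CKO) and 58% (WT). At their high levels in immature cells, finding all 3 does not by itself show that they vary together cell by cell.

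Lcn2 and the calgranulins were higher in immature cells by less. Lcn2 had 21945 CPM in immature and 5675 CPM in mature Stat4fl/flCD11cCre cells (3.87-fold), and 19278 CPM in immature and 4202 CPM in mature WT cells (4.59-fold). S100a9 had 211113 CPM in immature and 122904 CPM in mature Stat4fl/flCD11cCre cells (1.72-fold), and 202449 CPM in immature and 88694 CPM in mature WT cells (2.28-fold). S100a8, its partner in calprotectin, had 157387 CPM in immature and 88794 CPM in mature Stat4fl/flCD11cCre cells (1.77-fold), and 171132 CPM in immature and 73074 CPM in mature WT cells (2.34-fold). Unlike the trio, both calgranulins were still found in most mature cells: at the same 1000 UMIs per cell, S100a9 had a UMI in 94.1% (CKO) and 87.0% (WT) of mature cells and S100a8 in 95.2% (CKO) and 89.4% (WT).

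By CPM, Retnlg and the metalloproteases were higher in the mature gate. The members fill 49.3% (CKO) and 47.9% (WT) of the immature total but 25.3% (CKO) and 18.7% (WT) of the mature total. This lowers CPM by more in immature cells. The stage ratios were not recomputed without the members, so no direction is read from the small ratios of Mmp8 and Mmp9. Retnlg had 9927 CPM in immature and 25622 CPM in mature Stat4fl/flCD11cCre cells (a log2 ratio, immature over mature, of -1.37, 95% interval -1.39 to -1.34), and 6445 CPM in immature and 14494 CPM in mature WT cells (-1.17, -1.22 to -1.12). Mmp8 had 1071 CPM in immature and 1725 CPM in mature Stat4fl/flCD11cCre cells (-0.69), and 770 CPM in immature and 1245 CPM in mature WT cells (-0.69). Mmp9 had 992 CPM in immature and 1473 CPM in mature Stat4fl/flCD11cCre cells (-0.57), and 715 CPM in immature and 1041 CPM in mature WT cells (-0.54), just short of 1.5-fold. On the finer axis below, Mmp8 was lowest at the mature end, at 93.0 (CKO) and 79.5 CPM (WT). Mmp9 is the enzyme that names the gelatinase granules, which form after the specific granules that store Mmp8.

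Olfm4 had 176 CPM in immature and 27.7 CPM in mature Stat4fl/flCD11cCre cells (6.34-fold), and 58.1 CPM in immature and 4.25 CPM in mature WT cells (13.7-fold), from few cells. It had a UMI in 7.84% of immature Stat4fl/flCD11cCre cells and 4.41% of immature WT cells, against 2.21% (CKO) and 0.982% (WT) of mature cells. A single immature cell reached 67 UMIs in the Stat4fl/flCD11cCre library and 32 UMIs in the WT library, so that the gate's 233 (CKO) and 39 UMIs (WT) came from 8 (CKO) and 3 (WT) cells.

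Counting a gene when it differed at least 1.5-fold between immature and mature gates with at least 50 UMIs, 7 of 10 members were higher in immature Stat4fl/flCD11cCre cells, where 12.5% of 5419 genes were, and 6 of the 9 that had 50 UMIs in immature WT cells, where 9.86% of 4138 genes were. Olfm4, at 39 UMIs in immature and 6 UMIs in mature WT cells, was the member below 50 UMIs. Lower in immature cells were 2 members in each library, Retnlg and Mmp8, against 51% of genes in the Stat4fl/flCD11cCre library and 56.8% in the WT library. The median log2 ratio was 1.39 over the members and -0.62 over all genes counted in Stat4fl/flCD11cCre cells, and 1.23 over the members and -0.76 over all genes counted in WT cells. The gate totals behind these CPM include the members, which hold 49.3% (CKO) and 47.9% (WT) of immature-cell UMIs and 25.3% (CKO) and 18.7% (WT) of mature-cell UMIs. These stage counts were not recomputed with the members left out of the totals.

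In the progenitor gate, which at 28 (CKO) and 24 (WT) cells is given as values only, Mmp9 and Olfm4 had 0 UMIs, which, taken as a limit of 3 counts rather than as the Poisson bound, allows up to 3.13 (CKO) and 4.61 CPM (WT). Camp was counted at 2436 (CKO) and 1374 CPM (WT) and Ngp at 1675 (CKO) and 395 CPM (WT), with Ltf at 76.3 (CKO) and 3.07 CPM (WT). S100a8 stood at 11205 (CKO) and 17194 CPM (WT), and 7 (CKO) and 8 (WT) of the progenitors were calgranulin-rich. In the Stat4fl/flCD11cCre library those 7 cells held 92.6% of the S100a8 UMIs.

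A finer axis placed each granulocyte outside the progenitor gate by the share of its stage-list UMIs that came from the immature list, with cells whose stage lists tied kept in. The 3 genes of the trio were limited to its immature end. Camp had 25370 (CKO) and 24471 CPM (WT) in cells at 60 to 100%, 372 (CKO) and 547 CPM (WT) at 30 to 60%, 5.78 (CKO) and 9.29 CPM (WT) at 10 to 30%, and 20.7 (CKO) and 9.93 CPM (WT) at 0 to 10%. Ngp ran through 27723 (CKO) and 27475 CPM (WT) and 996 (CKO) and 1634 CPM (WT) over the upper bins, with 9 (CKO) and 4 UMIs (WT) left at 10 to 30%, then 11 (CKO) and 4 UMIs (WT) at 0 to 10%. Ltf ran through 5790 (CKO) and 5636 (WT), 187 (CKO) and 467 (WT), 14.4 (CKO) and 44.1 (WT), and 43.1 (CKO) and 49.7 CPM (WT). In the lower bins these values rest on 4 to 25 UMIs per gene and library.

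By CPM, Retnlg was highest at 30 to 60%, a bin in which the trio was already low. The bin totals include the members, and no value on the axis was recomputed without them. By share of cells at 1000 UMIs per cell, Retnlg was instead highest at 60 to 100%. It was found there in 86.4% (CKO) and 76.4% (WT), against 83.7% (CKO) and 70% (WT) at 30 to 60%. No peak is therefore read from its CPM. Retnlg had 27004 (CKO) and 16784 CPM (WT) at 60 to 100% and 33206 (CKO) and 27633 CPM (WT) at 30 to 60%. It had 7581 (CKO) and 4718 CPM (WT) at 10 to 30%, and 1080 (CKO) and 484 CPM (WT) at 0 to 10%. Mmp8 had 2110 (CKO) and 1740 CPM (WT) at 60 to 100% and 2070 (CKO) and 2098 CPM (WT) at 30 to 60%. Its CPM was thus close over these bins in CKO but higher at 30 to 60% in WT. By share of cells at 1000 UMIs it fell, from 74.9% (CKO) and 66.7% (WT) to 58.4% (CKO) and 50% (WT). Lower on the axis Mmp8 had 543 (CKO) and 339 (WT) and then 93.0 (CKO) and 79.5 CPM (WT). Mmp9 had the smallest ratio of highest to lowest bin, with 1511 (CKO) and 1215 (WT), 1573 (CKO) and 1338 (WT), 965 (CKO) and 764 (WT), and 976 (CKO) and 581 CPM (WT). S100a9 ran through 211214 (CKO) and 204505 (WT), 147848 (CKO) and 123842 (WT), 70772 (CKO) and 45163 (WT), and 29936 (CKO) and 17936 CPM (WT), which left it the highest of the 10 in every bin of both libraries. Lcn2 ran through 18325 (CKO) and 17307 (WT), 4785 (CKO) and 4840 (WT), 1700 (CKO) and 1229 (WT), and 572 (CKO) and 479 CPM (WT). Such a share can be set by few UMIs in shallow cells, and cells of the last bin were shallow, with a median of 2178 UMIs in the Stat4fl/flCD11cCre library.

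**Figure D2:**
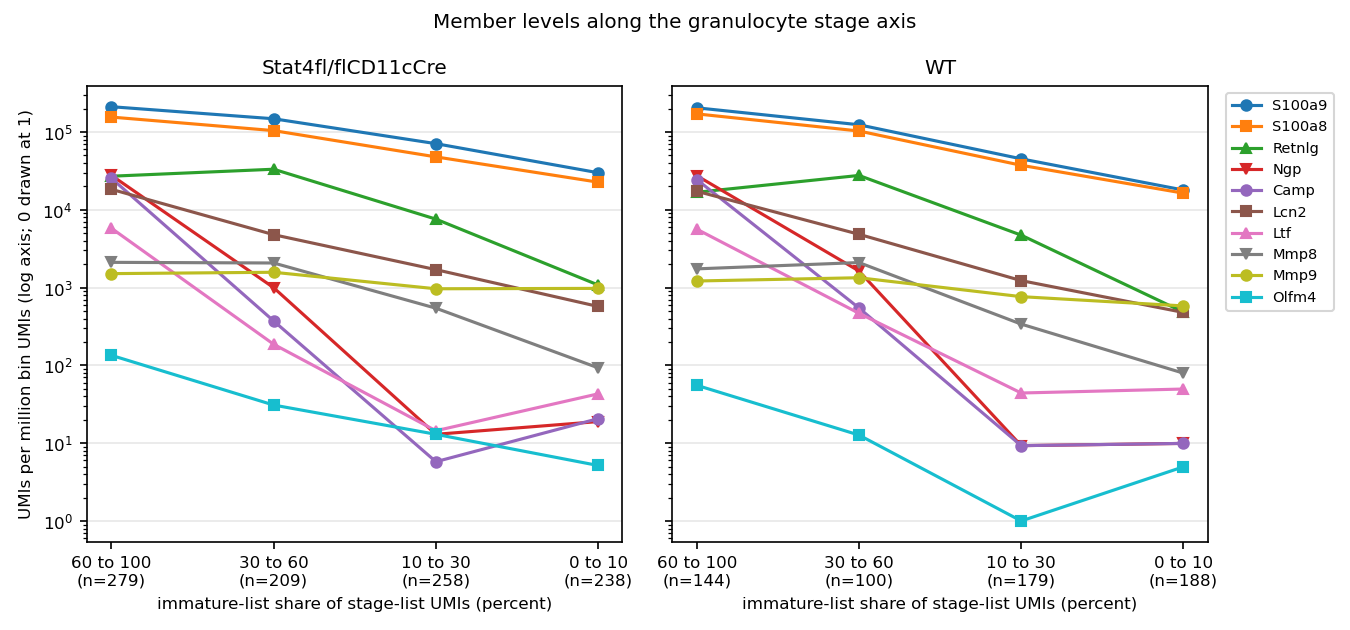
Levels of the 10 genes along the stage axis, in CPM of the bin on a log axis, in Stat4fl/flCD11cCre (left) and WT (right) granulocytes, with bins running from mostly immature-list to mostly mature-list UMIs and n the cells per bin. Ngp, Camp and Ltf lie below 50 CPM in the last bins while S100a9 is at 17936 CPM or more and Mmp9 lies between 965 and 1573 CPM over the bins in Stat4fl/flCD11cCre cells and between 581 and 1338 CPM in WT cells.

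Among genes outside the 10 and outside the gate markers, those most like the members over 14 gates and both libraries were ranked by Pearson r of log2(CPM + 10), over 28 points that share 2 libraries and most of whose spread is granulocytes against all other gates. For the calgranulins the 5 were Dach1 (r = 0.976), Tmem40 (0.976), Lrg1 (0.957), Lipg (0.946) and Abca13 (0.944). For the summed trio they were Dach1 (0.988), Tmem40 (0.987), Abca13 (0.975), Rflnb (0.959) and Slco4c1 (0.954). Abca13, a large ABC transporter, had 251 (CKO) and 214 CPM (WT) in immature and 47.0 (CKO) and 36.1 CPM (WT) in mature cells, and 0 UMIs in T cells. Lrg1, a secreted leucine-rich glycoprotein, differed in that its CPM was higher in mature cells, at 1201 (CKO) and 836 CPM (WT), than in immature cells, at 745 (CKO) and 697 CPM (WT). These totals too include the members, which fill more of the immature gate, and its stage difference was not recomputed without them.

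Outside granulocytes, the signal of most members was low beside that of neutrophils. In T cells, which are not known for making granule proteins, S100a8 was counted at 63.8 (CKO) and 41.4 CPM (WT) and S100a9 at 63.8 (CKO) and 32.6 CPM (WT), and none of the other 8 genes passed 6.61 CPM in either library. Over T, NK, B and choroid plexus gates, S100a8 lay between 29.0 and 63.8 CPM in the Stat4fl/flCD11cCre library and between 36.3 and 62.0 CPM in the WT library. At 2500 UMIs per cell, a UMI of S100a9 was found in 116 of 967 Stat4fl/flCD11cCre and 160 of 2004 WT T cells, the rate to set beside any share in a cell type that lacks the gene. Retnlg, Ltf, Camp, Ngp and Mmp9 were at 4.94 CPM or lower in classical monocytes and at 6.48 CPM or lower in T cells, with Camp at 2.98 (CKO) and 2.31 CPM (WT) in monocytes and 4.55 (CKO) and 2.49 CPM (WT) in T cells. Barcodes that failed the cell filter held S100a8 at 615 (CKO) and 1949 CPM (WT) and S100a9 at 963 (CKO) and 2311 CPM (WT).

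Mmp8 stood apart. In classical monocytes (Ly6c2, Ccr2, F13a1) it had 118 (CKO) and 85.8 CPM (WT) from 1625 (CKO) and 1225 UMIs (WT), against 0.689 (CKO) and 0.453 CPM (WT) from 5 (CKO) and 6 UMIs (WT) in T cells. At 2500 UMIs per cell it was found in 15.9% (CKO) and 14.5% (WT) of classical monocytes and in 0.207% (CKO) and 0.150% (WT) of T cells. The inflammatory macrophage gate (Arg1, Nos2) held it too, at 60.6 (CKO) and 80.8 CPM (WT) and in 10.8% (CKO) and 12.7% (WT) of thinned cells, whereas microglia had 0.981 (CKO) and 2.10 CPM (WT). Without the 6 (CKO) and 8 (WT) monocytes that were calgranulin-rich, Mmp8 in classical monocytes was still at 114 (CKO) and 83.0 CPM (WT). Its level in classical monocytes was 6.85% (CKO) and 6.89% (WT) of that in mature neutrophils, against 0.883% (CKO) and 0.990% (WT) for Lcn2, 0.369% (CKO) and 0.437% (WT) for S100a8 and less for the others.

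Lcn2 was the next, at 50.1 (CKO) and 41.6 CPM (WT) in classical monocytes against 6.61 (CKO) and 3.17 CPM (WT) in T cells, and in 5.63% (CKO) and 3.68% (WT) of thinned monocytes against 0.827% (CKO) and 0.948% (WT) of thinned T cells. S100a8 in classical monocytes came to 328 (CKO) and 320 CPM (WT), 5.14-fold (CKO) and 7.72-fold (WT) over T cells. Much of that level lay in a few cells: the 6 (CKO) and 8 (WT) calgranulin-rich monocytes carried 47.8% (CKO) and 52.9% (WT) of its UMIs, and without them it was 172 (CKO) and 152 CPM (WT). S100a9 was lower there than S100a8, at 122 (CKO) and 125 CPM (WT). The UMI ratio of S100a8 to S100a9 was 2.68 (CKO) and 2.55 (WT) in classical monocytes and 4.95 (CKO) and 6.15 (WT) in inflammatory macrophages, against 0.722 (CKO) and 0.824 (WT) in mature neutrophils and 1.00 (CKO) and 1.27 (WT) in T cells. Inflammatory macrophages included 0 calgranulin-rich cells, and S100a8 was at 161 (CKO) and 196 CPM (WT) there and in 27.3% (CKO) and 33.3% (WT) of thinned cells. With at least 50 UMIs, 3 of the 8 members counted (S100a8, Lcn2 and Mmp8) were at least 5-fold higher in classical monocytes than in T cells in each library, beside 8.93% of 10793 genes in the Stat4fl/flCD11cCre library and 8.99% of 11463 genes in the WT library. Leaving out the calgranulin-rich cells left Lcn2 and Mmp8.

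**Figure D3:**
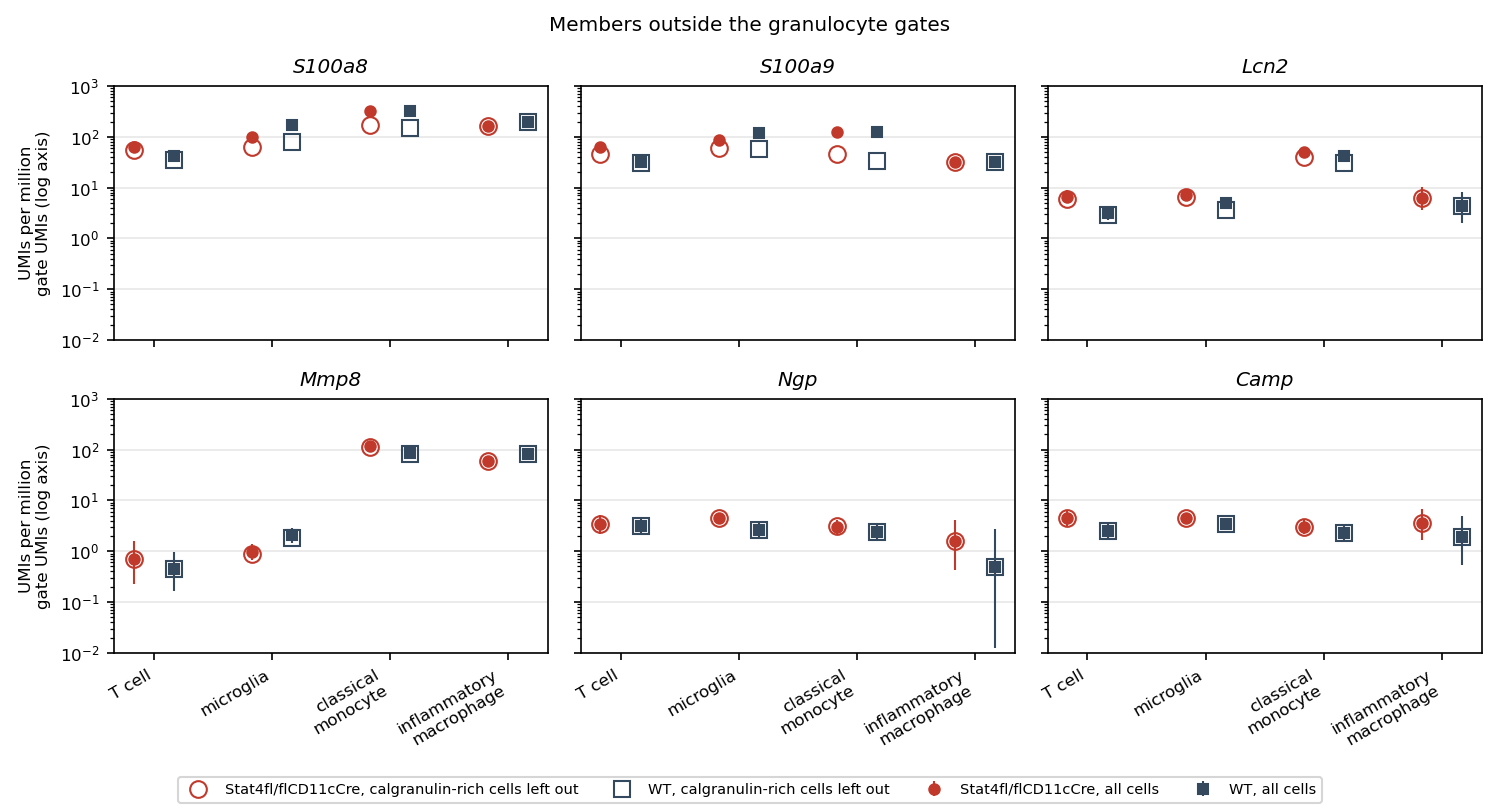
Levels of 6 of the genes, in CPM of the gate on a log axis, in gates outside granulocytes, for the Stat4fl/flCD11cCre library (circles) and the WT library (squares); filled symbols with exact 95% Poisson bars are all cells of the gate and open symbols leave out calgranulin-rich cells. Mmp8 and Lcn2 stand above their T-cell level in classical monocytes with and without those cells, S100a8 comes down to 172 (CKO) and 152 CPM (WT) without them, and Ngp and Camp sit at a few CPM in every gate shown.

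Microglia gave a small signal of Olfm4, with 95 UMIs in the Stat4fl/flCD11cCre library and 20 in the WT library, or 3.11 (CKO) and 1.20 CPM (WT). In T cells Olfm4 had 0 (CKO) and 1 UMI (WT). The microglial UMIs lay in no calgranulin-rich cell and at most 2 in any 1 cell. After thinning, 0.809% of Stat4fl/flCD11cCre and 0.221% of WT microglia had an Olfm4 UMI. S100a8 in microglia was at 99.8 (CKO) and 174 CPM (WT), of which 12 (CKO) and 17 (WT) calgranulin-rich cells carried 37.5% (CKO) and 55.6% (WT), and 62.6 (CKO) and 77.7 CPM (WT) remained without them.

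Between genotypes, all 10 genes were counted higher in Stat4fl/flCD11cCre than in WT cells of the mature gate as reported, but Ngp came to -0.040 on the log2 scale with a stricter cell filter and Olfm4 to -0.049 with a gate margin of 1.5. The log2 ratio, Stat4fl/flCD11cCre over WT, ran between 0.28 for S100a8 and 2.71 for Olfm4. Retnlg had 25622 CPM in Stat4fl/flCD11cCre and 14494 CPM in WT cells, a log2 ratio of 0.82 (95% interval 0.80 to 0.84). Camp had 2017 (CKO) and 1082 CPM (WT), a log2 ratio of 0.90 (0.82 to 0.98), and Ltf had 1001 (CKO) and 626 CPM (WT), a log2 ratio of 0.68 (0.57 to 0.79). These intervals cover counting error in the libraries and say nothing of the spread between mice. Olfm4, the extreme, rested on 79 (CKO) and 6 UMIs (WT), and 26 of the 79 lay in a single cell. The remaining ratios were 0.47 for S100a9, 0.43 for Lcn2, 0.33 for Ngp, 0.47 for Mmp8 and 0.50 for Mmp9.

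At 1.5-fold, 4 of 10 members were higher in Stat4fl/flCD11cCre mature cells (Retnlg, Ltf, Camp and Olfm4), beside 2.9% of the 5653 genes with at least 50 UMIs, and 0 were lower, beside 14.6%. The count of 4 became 7 with the members left out of the gate total and 2 with a stricter cell filter. The median log2 ratio was 0.49 over the members and -0.14 over all genes with at least 50 UMIs. In the immature gate 2 of 10 were higher, Retnlg and Olfm4, beside 4.1% of 3101 genes, and 0 were lower, beside 7.71%. There Retnlg had 9927 (CKO) and 6445 CPM (WT), a log2 ratio of 0.62 (0.57 to 0.67), and Olfm4 had 176 (CKO) and 58.1 CPM (WT), a log2 ratio of 1.60 (1.10 to 2.12). S100a8 leaned the other way in immature cells, with 157387 (CKO) and 171132 CPM (WT), a log2 ratio of -0.12 (-0.13 to -0.11), and S100a9 was nearly level at 211113 (CKO) and 202449 CPM (WT), a log2 ratio of 0.06 (0.05 to 0.07). Medians in the immature gate were 0.21 over the members and -0.04 over all genes.

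**Figure D4:**
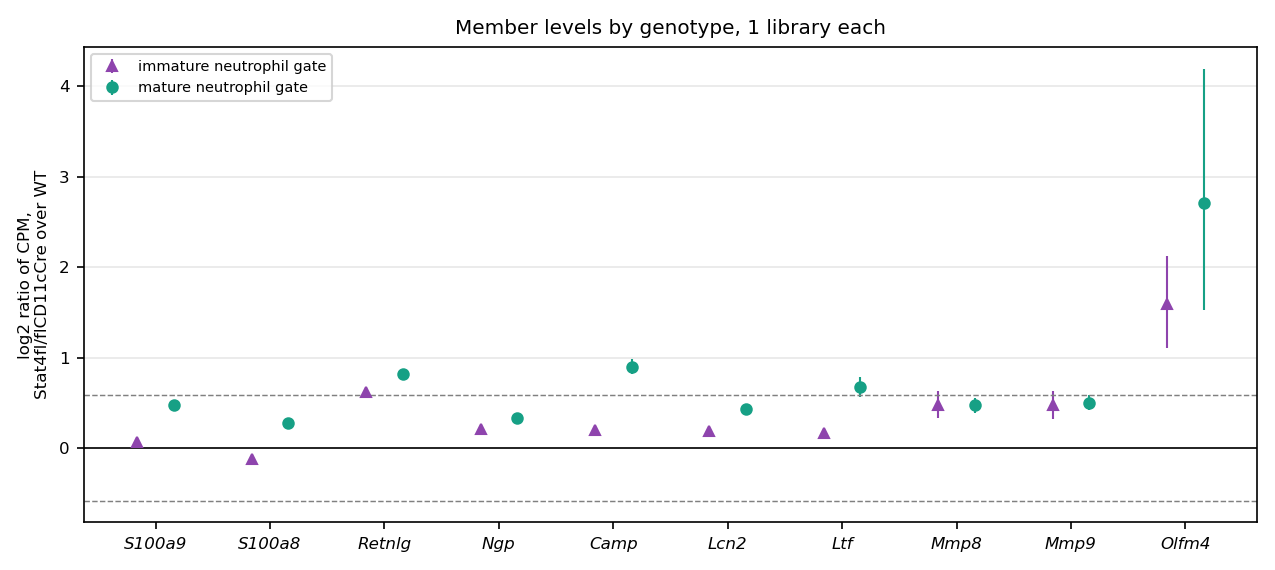
The log2 ratio of CPM, Stat4fl/flCD11cCre over WT, of each gene in the immature (triangles) and mature (circles) neutrophil gates, 1 library per genotype, with exact conditional binomial 95% bars for counting error and dashed lines at 1.5-fold. All 10 circles lie above 0, though Ngp and Olfm4 come below it under 1 other setting each, Retnlg and Olfm4 pass the line in both gates, and S100a8 is the single point below 0.

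Other quantities moved with genotype in the mature gate. Its cells were deeper in the Stat4fl/flCD11cCre library, at a median of 2747 (CKO) against 2120 UMIs (WT), and markers of several other cell types were sparser: the 7 inflammatory macrophage markers summed to 168 CPM with 6 detected in Stat4fl/flCD11cCre cells and 371 CPM with 7 detected in WT cells, the 7 microglial markers, all detected, to 80.0 (CKO) and 129 CPM (WT), the 7 classical monocyte markers, all detected, to 838 (CKO) and 963 CPM (WT), and the 8 NK markers to 13.7 CPM with 4 detected (CKO) and 47.4 CPM with 5 detected (WT). Stage makeup moved as well. Of granulocytes on the stage axis, 28.4% of Stat4fl/flCD11cCre (95% exact binomial interval 25.6 to 31.3%) and 23.6% of WT cells (20.3 to 27.1%) lay at 60 to 100%, while 24.2% of Stat4fl/flCD11cCre (21.5 to 27.0%) and 30.8% of WT cells (27.1 to 34.6%) lay at 0 to 10%. The part of depth, of other cells' RNA and of stage in the genotype ratios was not tested, but the ratios can be read within bins.

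Within bins the trio was level between genotypes at its peak. At 60 to 100% the log2 ratio, Stat4fl/flCD11cCre over WT, was 0.05 for Camp, 0.01 for Ngp and 0.04 for Ltf, where nearly all their UMIs lie. At 30 to 60% it was -0.56, -0.71 and -1.32, opposite in sign to the mature gate as a whole. Those values rest on few of the 209 (CKO) and 100 (WT) cells of that bin. At 1000 UMIs per cell, Camp was found in 3.83% (CKO) and 5% (WT) of them and Ltf in 2.39% (CKO) and 6% (WT). Ngp was found in 14.4% (CKO) and 14% (WT), so its share was close to level. Retnlg kept its sign throughout, at 0.69, 0.27, 0.68 and 1.16 over the bins from 60 to 100% down to 0 to 10%. S100a9 went through 0.05, 0.26, 0.65 and 0.74 and S100a8 through -0.14, 0.02, 0.36 and 0.47, so the genotype difference of the calgranulins was widest in the cells with the fewest immature-list UMIs. Mmp9 stood at 0.31, 0.23, 0.34 and 0.75 and Lcn2 at 0.08, -0.02, 0.47 and 0.25. The shares of cells ran against the CPM for the trio, so no order is read from them: in mature cells thinned to 2500 UMIs, which left out 336 (CKO) and 319 (WT) shallower cells, Camp was found in 15.7% (CKO) and 16.3% (WT), Ltf in 12.1% (CKO) and 17.4% (WT), Ngp in 28.8% (CKO) and 32.1% (WT) and Retnlg in 80.4% (CKO) and 75.8% (WT).

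Lists of related genes put these ratios in context, with at least 50 UMIs and 1.5-fold as before. In the mature gate, of 12 other specific or gelatinase granule genes measured, 1 was higher in Stat4fl/flCD11cCre cells, Lyz2, which encodes a lysozyme, at 4300 CPM in CKO and 2612 CPM in WT (log2 ratio 0.72), and 1 lower, Chil3, a chitinase-like protein, at 405 CPM in CKO and 707 CPM in WT (-0.80). Of 8 other S100 and stefin genes, 0 were higher and 3 lower, S100a4, S100a10 and Stfa3, each on 53 to 109 UMIs a library. None of the 2 azurophil granule genes, 4 receptors and inhibitors or 5 granule transcription factors measured there differed 1.5-fold. Listed genes within 1.5-fold moved both ways, between -0.56 for Ctsc and 0.56 for Pglyrp1. Hp and S100a11, both at 0.53, were above the median of 0.49 over the members. List medians were 0.24 for other specific or gelatinase granule genes, -0.37 for other S100 and stefin genes and 0.16 for transcription factors. In the immature gate, 0 of 12 other specific or gelatinase granule genes, 0 of 3 receptors and inhibitors and 0 of 5 transcription factors differed 1.5-fold. Chil1, Pglyrp1, Cd177 and Fcnb among those granule genes, and Cebpe among the factors, are markers of that gate. Its cells were picked by them in both libraries, so their likeness between genotypes is no independent check. Both azurophil genes measured were higher in Stat4fl/flCD11cCre cells, Elane (62 UMIs in CKO and 4 in WT) and Prtn3 (93 UMIs in CKO and 29 in WT), which are markers of the progenitor gate. The Elane UMIs lay in 4 of 102 (CKO) and 1 of 68 (WT) immature cells, and 36 of the 62 in CKO in a single cell, while those of Prtn3 lay in 19 (CKO) and 14 (WT) cells, up to 39 (CKO) and 13 UMIs (WT) in one. The stefins, which are cysteine protease inhibitors, split: Stfa2 (82 UMIs in CKO and 12 in WT) and Stfa3 (64 UMIs in CKO and 16 in WT) were higher and Stfa1 (131 UMIs in CKO and 169 in WT) was lower. They too rest on few cells, 2 to 7 per gene and library, and 165 of the 169 WT UMIs of Stfa1 lay in a single cell.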

How the data were processed

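RNA of sorted cells was captured with a droplet-based 3′ kit and, per the submitters' processing notes, handled with bcl2fastq, Cell Ranger 7.0.0 and STAR on mm10, with Seurat and R 4.3.0 also named. The deposited matrices hold whole UMI counts per gene and barcode, and antibody tag counts that were used only for totals, per the file headers. Totals were 120221740 gene UMIs in the Stat4fl/flCD11cCre library and 122975017 in the WT library. Counts were summed over the cells of a gate and library and divided by the gate total (CPM), with exact Poisson 95% intervals. Ratios have exact conditional binomial intervals and shares exact binomial (Clopper-Pearson) ones. All cover counting error only. The stricter cell filter took 1000 genes, 2000 UMIs and under 5% mitochondrial UMIs. Gates, thinning to 2500 UMIs and the 1.5-fold rule with 50 UMIs are as given with the results. Doublets were handled by the gate margin: Scrublet's automatic threshold marked 1 Stat4fl/flCD11cCre and 0 WT cells, so it had not worked, and removing the 10% of cells with the highest scores was an alternative. Calculations used Python 3.11.15, numpy 2.4.6, scipy 1.17.1, pandas 2.3.3 and scanpy 1.11.5. On simulated counts with the mature gate's totals, intervals covered the simulated ratio in 96.0% of unaltered genes among 5653. All 10 genes are named; of related lists, up to 4 genes per stage past 1.5-fold. The members, lists and stages were chosen with earlier results of these data known. The stage bins and the calgranulin threshold were set after the values were seen. Gene positions and promoters are from RefSeq tables of GRCm38.p6, which matched 10 and 9 of the 10 symbols.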

Additional observations from a re-analysis of the deposited data

Results flagged for a closer look

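S100a8 outside granulocytes went opposite ways by genotype in gates of at least 200 cells per library. Its log2 ratio of CPM, Stat4fl/flCD11cCre over WT, was 0.62 in T cells, on 463 UMIs in Stat4fl/flCD11cCre and 548 UMIs in WT cells. It was -0.80 in microglia, on 3054 UMIs in Stat4fl/flCD11cCre and 2899 UMIs in WT cells, and -1.09 in NK cells, on 44 UMIs in Stat4fl/flCD11cCre and 95 UMIs in WT cells. The ratio of S100a9 was 0.97 in T cells and -0.42 in microglia. In NK cells S100a9 was near level, at 0.09 on 69 (CKO) and 66 UMIs (WT), unlike S100a8. The difference between gates was not tested, as each rests on 1 library per genotype. Without calgranulin-rich cells S100a8 was at 55.7 CPM in Stat4fl/flCD11cCre and 35.3 CPM in WT T cells, and at 62.6 CPM in Stat4fl/flCD11cCre and 77.7 CPM in WT microglia.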

How the results depend on the processing

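No paired analysis was possible because each genotype is 1 library with no replicate number. The number of members at least 1.5-fold higher in mature Stat4fl/flCD11cCre cells was 4, and it became 1 at 2-fold, 7 with the members left out of the gate total and 2 with a stricter cell filter. In the immature gate it was 2, and became 1 at 2-fold and 1 with equal weight per cell. The ratio of granulocyte shares, Stat4fl/flCD11cCre over WT, was 1.70, and became 1.98 with a gate margin of 3 and 2.25 with the stricter filter. The log2 ratio of Olfm4 in the mature gate, 2.71, was -0.049 with a gate margin of 1.5. Of 200 recomputed ratios of single genes, 75 moved beyond their counting interval and 14 changed sign, among them S100a8 in classical monocytes, at 0.04 as reported, -0.40 with a margin of 3 and -0.45 with the highest Scrublet scores removed. The causes were not tested. With no minimum of UMIs, 7 members were at least 1.5-fold higher in immature than in mature cells of both libraries, and 7 were under every gate, filter and doublet alternative; with 50 UMIs it was 7 of 10 in Stat4fl/flCD11cCre and 6 of 9 in WT cells. With 1 library per genotype, depth bounds counting error only, and ungated cells hold much of the signal.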
